A study of Arabidopsis thaliana with 12 samples.

Results

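Cytochrome P450 genes were followed in whole Arabidopsis thaliana germinants exposed to metal oxide particles. Members were the probe sets whose annotation gave a single gene with a symbol made of CYP and a number, without 6 loci of the triterpene and suberin pathways, none of which had a probe set of its own in the annotation. The symbols gave 26 probe sets of 26 genes, out of 22746 probe sets and 13356 genes with a probe set of their own, so that each gene had a single probe set. RefSeq names 2 of these genes, CYP71 (AT3G44600) and CYP59 (AT1G53720), as cyclophilins, a family of protein-folding enzymes that shares the CYP abbreviation. The other 24 are named cytochrome P450 genes there, and the counts below cover these 24. They are 24 of the 237 P450 genes with such a symbol in the RefSeq gene table, and the others are not analysed here.

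All groups were Columbia (Col-0) germinants aged 12 days, raised from 50 seeds per dish on filter discs with 2 mL of liquid, and each group had 3 arrays. KCl germinants had 0.1 mM KCl and were the control of the TiO2 germinants, which had titania particles at 500 mg per L. Water germinants had sterile purified water and were the control of the CeO2 germinants, which had ceria particles at 500 mg per L. The labels do not say in which liquid the particles were suspended, and each array holds RNA of whole germinants, so that fewer cells of a type and less RNA per cell cannot be told apart. The labels call the KCl and TiO2 arrays biological replicates and the others only replicates, so the spread of the water and CeO2 arrays may be technical. The fit described below pools the spread of all 12 arrays, so this bears on the p-values of both comparisons.

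P450 enzymes are haem proteins that usually insert an oxygen atom from molecular oxygen into a substrate, with electrons that in the plant endoplasmic reticulum come from NADPH through a reductase. Plants use them to make and inactivate hormones, sterols, lignin precursors, wall lipids and defence compounds, and they are named by sequence likeness into families, given by the number, and subfamilies, given by the letter after it. The CYP71 family is among the large plant families, and its CYP71B subfamily lies partly in tandem runs of neighbouring genes. Many of its enzymes have no known substrate.

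Of the 24 genes, 19 belonged to the CYP71B subfamily, and the other 5 were single members of the CYP51, CYP78, CYP79, CYP84 and CYP718 families. The members cover little of the known P450 pathways: of the lists written for this work, 1 of 7 phenylpropanoid genes was measured (CYP84A4), 1 of 11 glucosinolate genes (CYP79A2), 1 of 7 camalexin and indole phytoalexin genes (CYP71B6), 1 of 8 terpenoid genes (CYP71B31), 1 of 11 sterol and triterpene genes (CYP51G2) and 1 of 6 organ growth genes (CYP78A9). The lists for brassinosteroid, gibberellin, abscisic acid, cytokinin, strigolactone, jasmonate, cutin, coumarin and carotenoid metabolism had no measured member. In these lists, measured means being a member by the symbol rule. A gene filed under another symbol, or read by 1 of the 8730 probe sets with no gene given, counts as unmeasured. All values are log2 expression per probe set.

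Array medians lay between 5.69 and 5.74 log2 for the KCl and TiO2 arrays and between 5.88 and 5.92 for the water and CeO2 arrays, and the lowest value of an array between 2.30 and 2.51. Levels set across these sets of arrays therefore also carry any difference in their normalization. Marker lists were chosen with earlier results of these data known. Of these markers, 3 of 6 green tissue genes, 4 of 6 root hair genes and 3 of 8 seed genes were measured. These had a probe set of their own in the annotation, and each had a group mean above 5 log2 in all groups. None of the 4 flower P450 genes on the list had a probe set of its own in the annotation.

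Differences were fitted with limma across all probe sets, with p-values adjusted by Benjamini-Hochberg over 22746 tests and a threshold of 0.05. Each difference is followed by its standard error (SE), and each mean by the standard deviation (SD) of its 3 arrays.

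In TiO2 germinants, 4 of the 24 P450 genes passed the threshold against KCl (16.7%, beside 10.6% of all probe sets). The pseudogene transcript CYP51G2 and the phenylpropanoid gene CYP84A4 rose by about 1.5-fold, and CYP71B23 and CYP71B26 of a tandem run on chromosome 3 fell. In CeO2 germinants 2 of the 24 passed against water (8.33%, beside 2.42% of all probe sets). CYP71B6, of indole metabolism, fell 2.33-fold and CYP718 rose 2.13-fold. No gene passed in both comparisons. Neither count was tested against the background, and with 4 and 2 genes no excess is read from it.

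**Figure D1:**
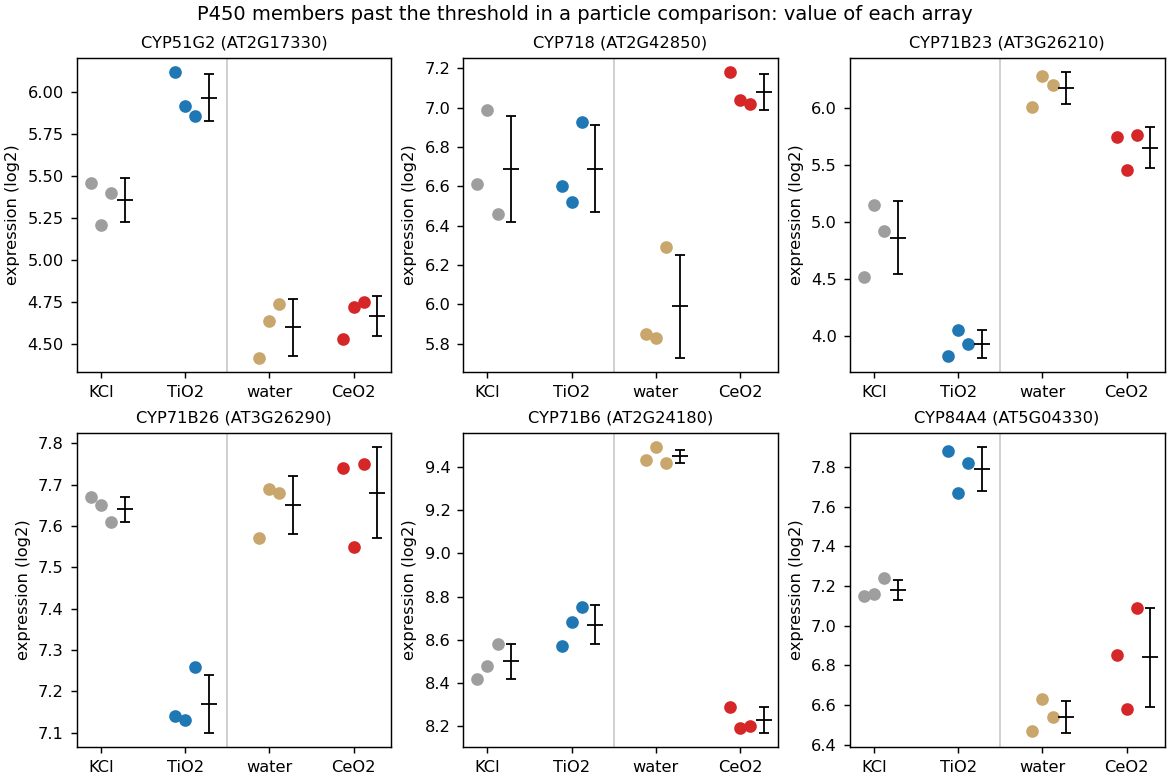
Expression (log2, vertical axis, scale set per panel) of the 6 P450 genes past the threshold in a particle comparison, with 3 points per group for the arrays and a bar for the mean and SD (n = 3). TiO2 arrays lie apart from KCl in CYP51G2, CYP71B23, CYP71B26 and CYP84A4, and CeO2 arrays apart from water in CYP71B6, CYP718 and CYP71B23.

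Among members with a known pathway, CYP84A4 (AT5G04330) hydroxylates p-coumaraldehyde to caffealdehyde on the way to arabidopyrones, pyrone metabolites made from phenylalanine. Its KCl arrays read 7.15, 7.16 and 7.24, and its TiO2 arrays 7.88, 7.67 and 7.82. Every TiO2 array was above every KCl array. The rise was 0.61 ± 0.11 log2 (SE), or 1.52-fold, from a mean of 7.18 ± 0.05 to 7.79 ± 0.11 (SD, n = 3; limma adjusted p = 0.00206). Water arrays read 6.47, 6.63 and 6.54 and CeO2 arrays 6.85, 6.58 and 7.09. The CeO2 groups overlapped, and the difference of 0.30 ± 0.11 did not pass (adjusted p = 0.307). The difference between both particle effects, CeO2 effect minus TiO2 effect, was −0.31 ± 0.16 (adjusted p = 0.304), with a 95% interval from −0.65 to 0.03, so the particles were not shown to differ for this gene.

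CYP51G2 (AT2G17330) is a transcribed pseudogene in RefSeq, related to the sterol 14-demethylase CYP51G1, whose enzyme takes a methyl group off obtusifoliol in plant sterol synthesis. Its KCl arrays read 5.46, 5.21 and 5.40, and its TiO2 arrays 6.12, 5.92 and 5.86. The groups did not overlap, and the rise was 0.61 ± 0.11 log2 or 1.53-fold (adjusted p = 0.00167). Its water arrays read 4.42, 4.64 and 4.74 and its CeO2 arrays 4.53, 4.72 and 4.75. These groups overlapped, with a difference of 0.07 ± 0.11 (adjusted p = 0.951). The effects of CeO2 and TiO2 differed by −0.54 ± 0.15 (adjusted p = 0.0418), a call that was lost in 10 of 17 alternatives, with adjusted p from 0.0156 to 0.115. These alternatives were centring of the arrays, an intensity trend with a robust prior, and leaving out any CeO2 array, KCl replicate 2, TiO2 replicates 1 or 2, or water replicates 2 or 3. Whether its probes also read the CYP51G1 transcript was not tested.

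CYP71B6 (AT2G24180) converts indole-3-acetonitrile toward indole-3-carbaldehyde and indole-3-carboxylic acid, defence-related indole compounds. Its water arrays read 9.43, 9.49 and 9.42, and its CeO2 arrays 8.29, 8.19 and 8.20. The groups were far apart beside their spread. It fell by 1.22 ± 0.08 log2, from 9.45 ± 0.03 to 8.23 ± 0.06 (SD, n = 3), with an adjusted p of 1.40e-07 in limma. KCl arrays read 8.42, 8.48 and 8.58 and TiO2 arrays 8.57, 8.68 and 8.75. In this pair the groups overlapped, and the difference was 0.17 ± 0.08 (adjusted p = 0.236). The particle effects differed by −1.39 ± 0.12 log2, in the same direction of subtraction (adjusted p = 2.23e-06). The water arrays held the highest values of this gene among the 12 arrays, and after quantile normalization of all 12 arrays together they lay from 9.45 to 9.51, against 8.18 to 8.78 in the 9 other arrays.

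CYP718 (AT2G42850) is the single gene of its family here and belongs to the CYP85 clan, a group of families that includes brassinosteroid and abscisic acid enzymes. Its water arrays read 5.85, 5.83 and 6.29, and its CeO2 arrays 7.18, 7.04 and 7.02. All CeO2 arrays were above all water arrays, and water replicate 3 was the nearest to them. The rise was 1.09 ± 0.15 log2, from 5.99 ± 0.26 to 7.08 ± 0.09 (SD, n = 3; limma adjusted p = 0.000271). KCl arrays read 6.61, 6.99 and 6.46, and TiO2 arrays 6.60, 6.52 and 6.93. Those groups overlapped, with a difference of 0.00 ± 0.15 (adjusted p = 0.998) and a 95% interval from −0.32 to 0.32. The CeO2 effect exceeded the TiO2 effect by 1.09 ± 0.21 (adjusted p = 0.00352). Here the water arrays were the lowest of the 12, at 5.73 to 6.22 after joint quantile normalization against 6.57 to 7.11 in the others.

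Root hair markers moved with the CeO2 comparison in which CYP718 rose and CYP71B6 fell. All 4 measured markers (EXPA7, EXPA18, XTH26 and PRX44) rose, and their summed level was 10.46 to 10.90 log2 in water arrays and 11.91 to 12.14 in CeO2 arrays. For each marker, water had the lowest of the 4 group means (7.64, 7.31, 5.55 and 10.3 in the same order). CeO2 had the highest (8.6, 8.74, 7.82 and 11.56), which for EXPA7 and EXPA18 lay close to the TiO2 means given below. None of the measured green tissue or seed markers passed in that comparison. In the TiO2 comparison the 3 measured seed markers (M17, PAP85 and AtLEA4-1) fell, with a summed level of 9.17 to 10.08 log2 in KCl arrays and 7.32 to 8.68 in TiO2 arrays. The 3 green tissue markers fell too, from 14.09 to 14.44 down to 13.80 to 13.95. Of the 4 root hair markers, 1 passed, with a fall. Means of XTH26 (6.34 in KCl, 5.94 in TiO2) and PRX44 (11.05 and 10.61) were lower in TiO2. Those of EXPA7 (8.15 and 8.49) and EXPA18 (8.56 and 8.62) were higher. The summed level of all 4, to which PRX44 adds most, was 11.39 to 11.58 in KCl and 11.15 to 11.30 in TiO2. The marker lists were chosen with earlier results of these data known, so their shifts are described here and are no independent check. The part of these marker shifts in the P450 results was not tested.

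**Figure D2:**
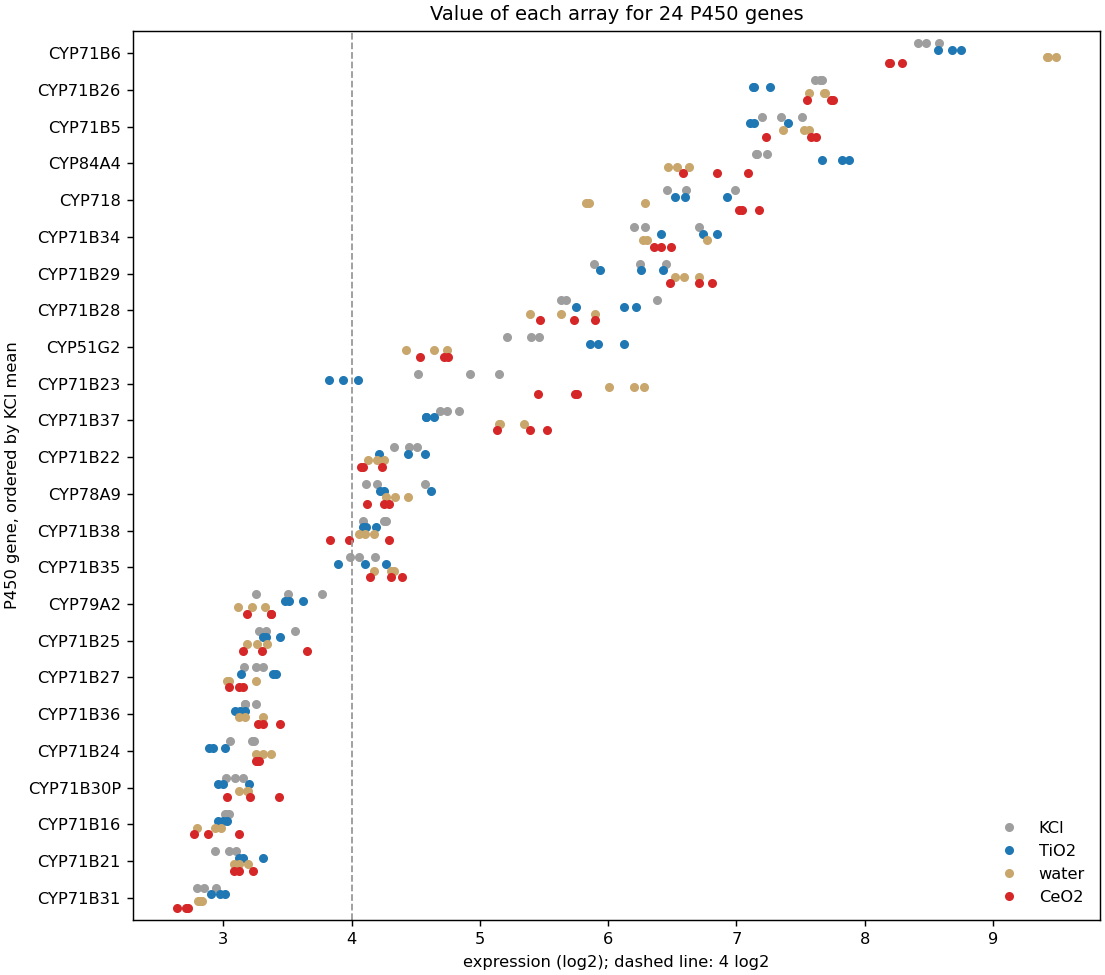
Expression (log2, horizontal axis) of the 24 P450 genes in each of the 12 arrays, coloured by group and ordered by KCl mean, with a dashed line at 4 log2. For 9 genes all group means lie below the line, and the 6 genes past the threshold lie above it in at least 3 of their 4 groups.

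The CYP71 family was represented by the 19 CYP71B genes. None of them rose in TiO2, 2 fell and 17 did not pass, with a median difference of −0.03 log2 beside 0.019 over all probe sets. In CeO2 none rose, 1 fell (CYP71B6) and 18 did not pass, with a median of 0.01 beside −0.005. In the 5 single-member families, TiO2 gave 2 rises (CYP51G2 and CYP84A4) and CeO2 gave 1 (CYP718), with no fall. Over all probe sets 4.72% rose and 5.86% fell in TiO2, and 1.26% rose and 1.16% fell in CeO2. By clan, the larger grouping of families, the CYP71 clan held 22 of the 24 genes, of which 1 rose and 2 fell in TiO2 and 1 fell in CeO2.

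**Figure D3:**
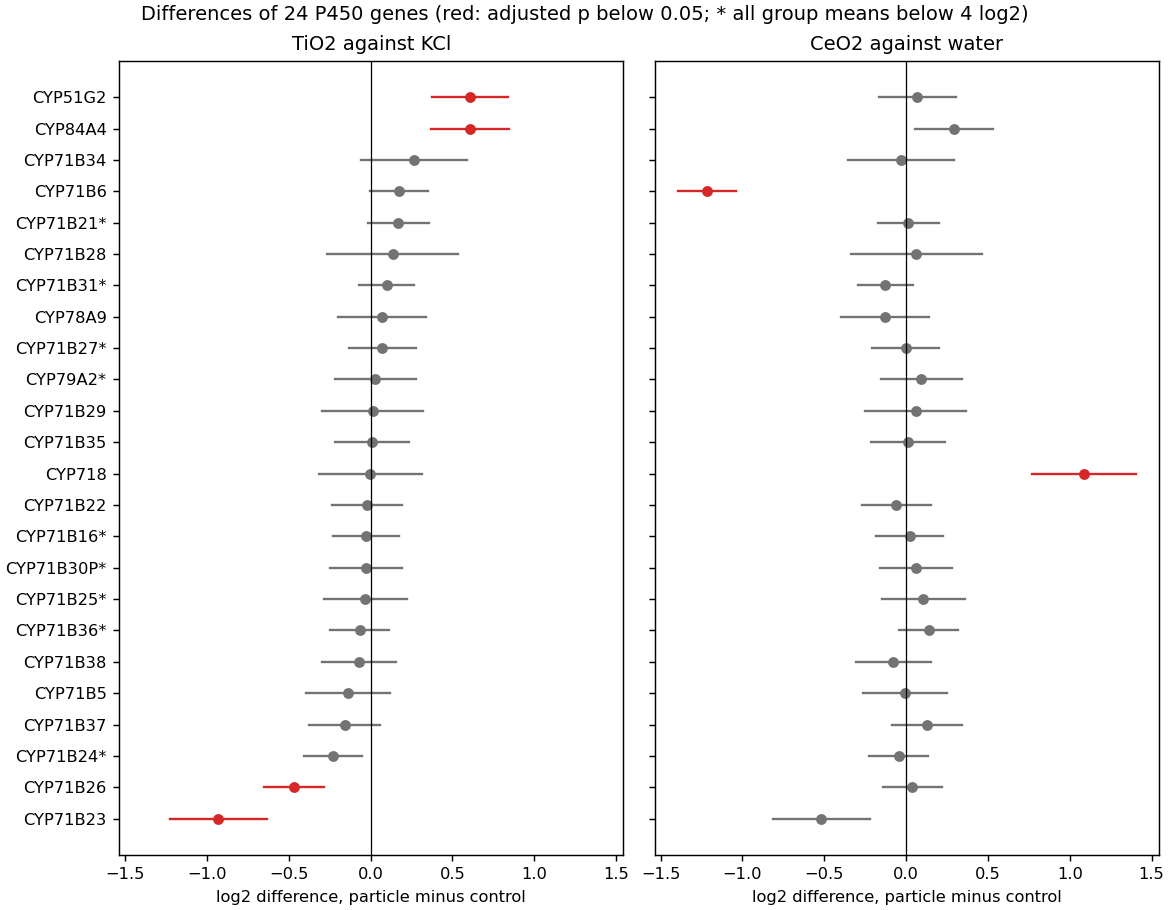
Differences in log2 expression (particle minus control, horizontal axis) with 95% intervals for the 24 P450 genes, TiO2 against KCl on the left and CeO2 against water on the right. Red marks the 4 and 2 genes with an adjusted p below 0.05, and an asterisk the 9 genes with all group means below 4 log2.

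A run of CYP71B genes on chromosome 3, from CYP71B16 (AT3G26150) to CYP71B37 (AT3G26330), held 11 of the members. RefSeq lists 24 genes over this stretch, 18 of them with a CYP symbol. Both falls in TiO2 came from this run, and its other 9 measured genes did not pass. These are 2 of 11 genes (18.2%, beside 10.6% of all probe sets called in either direction and 5.86% lower). That count was not tested, and no excess is read from it. Such tandem copies can be alike in sequence, and whether a probe set also reads a neighbour was not tested.

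CYP71B23 (AT3G26210) read 4.52, 5.15 and 4.92 in KCl arrays and 3.82, 4.05 and 3.93 in TiO2 arrays. The groups did not overlap, and the change was −0.93 ± 0.14 log2 (adjusted p = 0.000381). The TiO2 mean of 3.93 lies just under 4 log2, the level below which genes were treated as near the floor. Whether this made the fall of 1.91-fold smaller than the true one was not tested. Water arrays read 6.01, 6.28 and 6.20 and CeO2 arrays 5.74, 5.45 and 5.76, again without overlap. That change of −0.52 ± 0.14 did not pass (adjusted p = 0.0716), but passed when only the compared arrays were fitted (adjusted p = 0.0276) and with the replicate number as a block (adjusted p = 0.0289). The effects of both particles on it differed by 0.41 ± 0.20 (adjusted p = 0.262) and were not shown to be unequal.

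CYP71B26 (AT3G26290) read 7.67, 7.65 and 7.61 in KCl arrays and 7.14, 7.13 and 7.26 in TiO2 arrays. All TiO2 arrays were lower, by −0.47 ± 0.09 log2 (adjusted p = 0.00193), a 1.38-fold fall well above the floor. In water arrays it read 7.57, 7.69 and 7.68, and in CeO2 arrays 7.74, 7.55 and 7.75, which overlapped. The difference there was 0.04 ± 0.09 (adjusted p = 0.974), and the particle effects differed by 0.51 ± 0.12 (adjusted p = 0.0148).

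The other measured genes of the run had smaller differences in TiO2, in either direction. CYP71B22, directly next to CYP71B23, differed by −0.02 ± 0.10 in TiO2 (95% interval −0.24 to 0.19) and by −0.06 ± 0.10 in CeO2. CYP71B21, next in line, stood at 0.17 and 0.01 but with all group means below 4. CYP71B16, at the start of the run and also below 4, stood at −0.03 in TiO2 and 0.02 in CeO2. CYP71B24 lies beyond CYP71B3, for which the annotation gave no probe set. CYP71B24 was at −0.23 ± 0.08 in TiO2 (95% interval −0.41 to −0.05, limma adjusted p = 0.0986), with groups that did not overlap. It was at −0.05 in CeO2, and also below 4 in every group. CYP71B25, the nearest measured gene before CYP71B26, was at −0.03 in TiO2 and 0.11 in CeO2. On the far side of CYP71B26, CYP71B34 differed by 0.27 ± 0.15 in TiO2 (adjusted p = 0.338) and by −0.03 in CeO2. CYP71B35, CYP71B36 and CYP71B37, which follow it with no gene between them, differed by 0.01, −0.07 and −0.16 in TiO2 and by 0.01, 0.14 and 0.13 in CeO2. No measured gene beside CYP71B23 or CYP71B26 passed the threshold, and the difference between neighbouring genes was not tested.

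**Figure D4:**
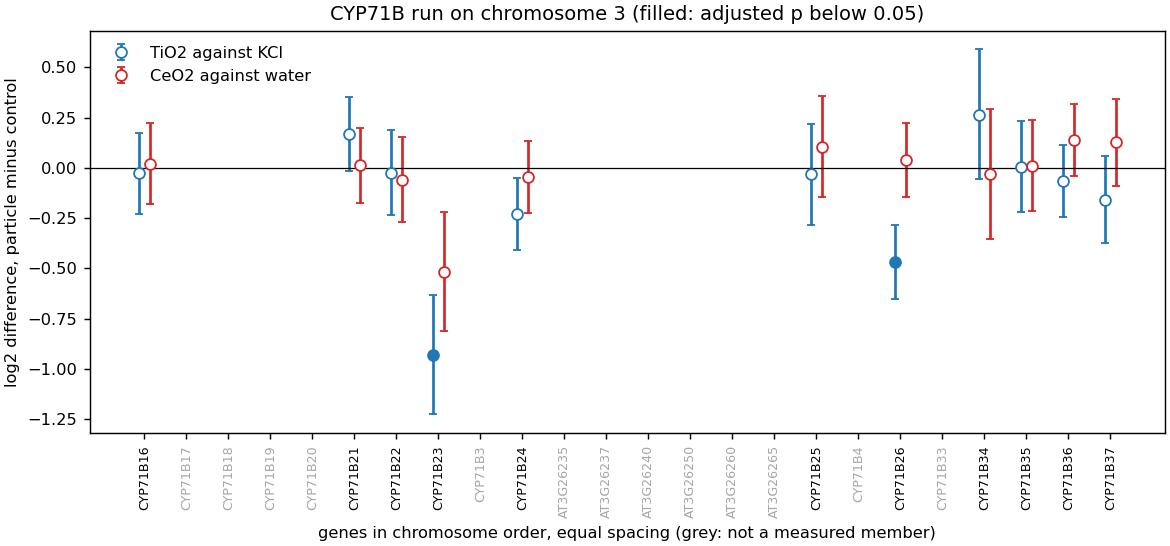
Differences in log2 expression (particle minus control, vertical axis) with 95% intervals along the CYP71B run of chromosome 3, genes in order and equally spaced, with names in grey for genes that were not measured members. Filled points, adjusted p below 0.05, are CYP71B23 and CYP71B26 in TiO2; no CeO2 point is filled.

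A shorter run on chromosome 1 held CYP71B27, a transcribed pseudogene in RefSeq, CYP71B28 and CYP71B29. CYP71B28 read 5.67, 5.63 and 6.38 in KCl, 5.75, 6.12 and 6.22 in TiO2, 5.63, 5.90 and 5.39 in water and 5.90, 5.47 and 5.73 in CeO2. Its SD of 0.42 in KCl was the highest of any member in a group, and its differences of 0.14 and 0.06 did not pass. CYP71B29 differed by 0.01 and 0.06, and CYP71B27 by 0.07 and 0.00, in TiO2 and CeO2. Another group on chromosome 3 held CYP71B5, CYP71B30P, which RefSeq classes as protein coding although its synonyms there call it a pseudogene, and CYP71B31. CYP71B5 differed by −0.14 ± 0.12 in TiO2 and −0.01 ± 0.12 in CeO2, at group means of 7.22 to 7.48, clear of the floor. CYP71B31, which oxidizes linalool in flowers, was below 3 in every group mean, at 2.69 to 2.96, with differences of 0.10 in TiO2 and −0.13 in CeO2. CYP71B30P differed by −0.03 in TiO2 and 0.06 in CeO2.

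Of the other single-member families, CYP79A2 makes phenylacetaldoxime from phenylalanine for benzylglucosinolate, and CYP78A9 promotes growth of the seed coat and fruit. CYP79A2 had group means of 3.22 to 3.54, below 4 in all groups, and differences of 0.03 and 0.09. CYP78A9 had means of 4.22 to 4.36 and differences of 0.07 ± 0.13 in TiO2 and −0.13 ± 0.13 in CeO2. CYP71B38, the remaining CYP71B gene on chromosome 3, was near 4 in all groups, with differences of −0.07 and −0.08.

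Over the 20 genes that did not pass in TiO2, differences ran from −0.23 to 0.27, and their 95% intervals from −0.41 to 0.59. Over the 22 that did not pass in CeO2, differences ran from −0.52 (CYP71B23) to 0.30 (CYP84A4), with intervals from −0.81 to 0.53. The 9 genes with all group means below 4 log2, among them CYP71B16, CYP71B25 and CYP71B36, had differences of −0.23 to 0.17 in TiO2 and −0.13 to 0.14 in CeO2. Whether differences are made smaller at that level was not tested. All 6 genes past a threshold were among the 15 others. Counted by overlap alone, 7 genes had separated groups in TiO2 (24.4% of all probe sets did) and 4 in CeO2 (16.8% of all probe sets). These added CYP71B21, CYP71B24 and CYP71B37 in TiO2 and CYP71B23 and CYP71B31 in CeO2.

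In the difference between both particle effects, 4 of the 24 genes passed (16.7%, beside 8.06% of all probe sets). CYP718 and CYP71B26 were more positive under CeO2 (4.64% of all probe sets were), and CYP71B6 and CYP51G2 more negative (3.42%). The particle, its control liquid and the set of arrays cannot be told apart in these differences.

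Of the 2 cyclophilins, CYP71 carries WD40 repeats and acts in chromatin silencing, and CYP59 binds RNA and RNA polymerase II. CYP71 differed by −0.03 ± 0.10 in TiO2 and −0.08 ± 0.10 in CeO2, and CYP59 by 0.00 ± 0.13 and 0.12 ± 0.13. Neither passed in any comparison.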

How the data were processed

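The authors deposited log2 values of RMA (robust multi-array average), a step named in the submitters' processing notes. Its version, the probe definitions and whether all 12 arrays were normalized together are not given in the sources used here. No value was missing and all 22746 probe sets entered the fit. Genes came from the probe annotation (13513 probe sets with 1 gene, 503 with several, 8730 with none given) and symbols from RefSeq, in which 13436 of the 13513 were found by gene ID. The rule left out 2 probe sets that the annotation pairs with several genes, a CYP gene among them.

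limma 3.58.1 (R 4.3.3) fitted 1 mean per group over 12 arrays, with empirical Bayes moderation and two-sided tests. Residual degrees of freedom were 8, with 7.63 from the prior, and the median SE of a group difference was 0.106 log2. In simulated arrays with uncorrelated noise, 90 of 97 true differences of 1 log2 were found for TiO2 against KCl and 108 of 111 for CeO2 against water, and 58 of 103 and 49 of 89 at 0.5 log2. The 3 arrays per group limit the precision. Genes below 4 log2 were treated as near the floor.

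Members and lists were chosen with earlier results of these data known. All members past the threshold in any comparison were named with every array's value, and the others with their differences. Same-numbered arrays were not taken as pairs: the correlations of their deviations were 0.114, 0.046 and 0.274 for KCl with TiO2 and 0.302, 0.002 and 0.057 for water with CeO2.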

Additional observations from a re-analysis of the deposited data

Results flagged for a closer look

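The effects of CeO2 and TiO2, each against its own control, differed past the threshold for 4 P450 genes (CeO2 effect minus TiO2 effect). CYP71B6 differed by −1.389 log2 and CYP718 by 1.089, each from a CeO2 difference beside a TiO2 difference that did not pass. CYP71B26 differed by 0.508, from a fall in TiO2, and CYP51G2 by −0.540, from a rise in TiO2. Groups of 3 arrays were too small for a test of single outlying arrays.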

How the results depend on the processing

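The counts of P450 genes past the threshold were 4 in TiO2 under all 12 alternatives run, 2 or 3 in CeO2, and 3 or 4 for the difference of effects. The 4 TiO2 calls and the 2 CeO2 calls were past the threshold in all 12 alternatives run for their comparison, 6 of which left out 1 array, with adjusted p up to 0.0124. The differences of effect of CYP71B6, CYP718 and CYP71B26 passed in all 17 alternatives run, with adjusted p up to 0.0444. With the replicate block, CeO2 gave 3 genes, CYP71B23 being added at −0.517 (adjusted p = 0.0289), while TiO2 gave 4. The block was no pairing by design, and not every array correlated best with its own number. The difference call of CYP51G2 was lost in 10 of 17 alternatives. Over all probe sets, fitting only the compared arrays called 1432 in TiO2 instead of 2407. A mean over several probe sets per gene was not run, since each gene had 1. Including the 2 cyclophilins, an alternative chosen after seeing the data, changed no count. Leaving out dim probe sets kept 13 of the 24 genes.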
